A study of Mus musculus with 8 samples.

Results

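The effect of 5-azadC on tumors that also received C29 was examined by setting the 2 libraries of C29+5-azadC against the 2 libraries of C29 alone, 4 of the 8 reduced representation bisulfite sequencing (RRBS) libraries of the series. All tumors grew from NIC-5231, a mouse mammary tumor cell line from an ErbB2-driven tumor model, transplanted into the mammary fat pad of immunodeficient NSG hosts. Both groups received C29, an inhibitor of the nuclear receptor ERRα, at 10 mg/kg, and the combination group also received 5-azadC at 1 mg/kg, injected every 2 days, with 5 mice in each group. Each library held DNA pooled from 2 tumor-bearing mice, so the spread between 2 libraries is the spread between pools and not between single mice. Methylation was read at the cytosines of CpG dinucleotides, each strand separately, and 779854 autosomal cytosines had at least 10 reads in all 4 libraries. These were 27.0% of the 2891552 autosomal cytosines read in any of the 4.

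DNA methyltransferases place methyl groups on CpG cytosines, and DNMT1 copies the pattern onto the new strand when a cell divides. 5-azadC (decitabine) is a cytidine analog that is built into DNA during replication and traps these enzymes there, so that methylation is lost as cells divide. In mammalian cells most CpGs outside promoters carry methylation, CpG-dense promoters are mostly free of it, and at the control regions of imprinted genes the copy from a single parent is methylated. ERRα is an orphan nuclear receptor known for its control of mitochondrial and energy metabolism.

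The regions with the widest gaps between the groups were read at few CpGs. The sequences of 7 of them are shown, to let the spacing of those CpGs be seen, read 5′ to 3′ from the RefSeq GRCm38 genome, with the CpGs that were tested in capitals and all other bases, including CpGs without enough reads, in lower case. Both tiles lay outside genes, and the others lay upstream of an annotated start site of the gene, outside annotated exons. Promoters covered 1000 bp before each annotated start site, so the Hlcs, Golga7b and Tnfaip2 sequences, which precede internal start sites, lay in an intron of their own gene, whereas that of Adam6b ended 749 bp and that of Mapk8ip1 1 bp before the gene.
Chromosome 3 tile, lower (chr3:121552707-121552767, plus strand): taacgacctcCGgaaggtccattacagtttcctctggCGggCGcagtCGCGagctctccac
Chromosome 19 tile, lower (chr19:51442384-51442446, plus strand): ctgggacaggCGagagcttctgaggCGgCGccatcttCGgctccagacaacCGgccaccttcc
Hlcs promoter, lower (chr16:94206509-94206567, plus strand): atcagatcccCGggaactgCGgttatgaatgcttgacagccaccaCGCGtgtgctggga
Adam6b promoter, lower (chr12:113488599-113488762, plus strand): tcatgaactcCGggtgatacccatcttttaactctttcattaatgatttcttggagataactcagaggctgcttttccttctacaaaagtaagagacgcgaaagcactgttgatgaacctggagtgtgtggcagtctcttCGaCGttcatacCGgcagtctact
Golga7b promoter, higher (chr19:42255559-42255655, plus strand): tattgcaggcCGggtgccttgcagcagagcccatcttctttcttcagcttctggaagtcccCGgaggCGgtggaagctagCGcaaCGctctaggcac
Tnfaip2 promoter, higher (chr12:111443811-111443875, plus strand): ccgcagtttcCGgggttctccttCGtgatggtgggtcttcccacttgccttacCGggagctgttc
Mapk8ip1 promoter, higher (chr2:92401264-92401331, plus strand): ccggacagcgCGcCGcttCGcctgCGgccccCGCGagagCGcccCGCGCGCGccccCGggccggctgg
The first 6 windows held 3 to 5 tested CpGs each, whereas that of Mapk8ip1 packed 12 tested CpGs into 68 bases.

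Per cytosine, the chromosome 3 tile read 98.2% to 100% in both C29 libraries at each of its 5 cytosines, and 45.5% and 39.5% to 40.5% in combination libraries 1 and 2. In the chromosome 19 tile all 5 cytosines read 100% in both C29 libraries, on 20 and 21 reads. Combination library 1 read 0% at 4 of them and 100% at the fifth, with 22 reads at every cytosine, and library 2 read 46.4% at 4 and 0% at the other, on 28 reads. At each cytosine the 22 reads of library 1 thus gave a single call. Reads were not marked by molecule, so reads over such a stretch can be copies of few molecules, and the tests on reads below cover counting error only. At Hlcs the cytosines of CpGs 2 to 4 read 100% in both C29 libraries, and 67.6% and 58.1% to 75.7% in the combination. The Mapk8ip1 window read differently from CpG to CpG. Its first plus-strand cytosine stood at 35.0% and 35.9% with C29 and at 100% and 92.3% with the combination, while the plus-strand cytosine at position 51 of the window stood at 70.0% and 35.9% with C29 and at 63.6% and 0% with the combination.

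Across all cytosines the combination tumors were less methylated than the C29 tumors. Mean methylation was 34.3% and 33.2% in the C29 libraries and 31.2% in each combination library. Both combination libraries lay below both C29 libraries, with a difference of -2.59 percentage points, from 33.8% ± 0.78 (SD, n = 2 libraries) to 31.2% ± 0.0065 (SD, n = 2), or -7.67% of the C29 level. The two-sided exact permutation test gave p = 0.333, the smallest p that 2 libraries against 2 allow. The difference was between -2.01 and -3.08 points on each of the 19 autosomes, without overlap of the groups on any of them. C29 library 2 alone gave a difference of -2.04 points from the combination and C29 library 1 alone -3.14 points.

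Depth moved with the groups. The C29 libraries held 69842185 and 73325247 reads over cytosines and the combination libraries 57947338 and 51359825. With at least 20 reads in all 4 libraries the difference was -2.77 points and with at least 5 it was -2.49 points. In spike-in DNA without methylation, 0.268% and 0.329% of reads were called methylated in the C29 libraries and 0.293% and 0.216% in the combination libraries, and the groups overlapped in this measure of incomplete conversion. The tumors were sequenced whole, and a change in the mix of tumor and host cells and a change within cells cannot be told apart.

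The groups stood apart outside promoters. At 231031 cytosines in promoters of protein-coding genes, the C29 libraries stood at 9.11% and 8.34% and the combination libraries at 8.52% and 8.25%, and the groups overlapped. Exonic cytosines outside promoters stood at 35.6% and 34.2% with C29 and at 33.0% and 32.7% with the combination. Introns stood at 46.5% and 45.4% with C29 and at 41.6% and 41.8% with the combination, a difference of -4.26 points. At the 73198 cytosines 10 kb or more from any gene the values were 64.6% and 63.9% with C29 and 58.3% and 59.1% with the combination, a difference of -5.59 points and the widest of these classes. Cytosines in repeats, which are the parts of the genome that the reference marks as interspersed or low-complexity sequence, stood at 59.0% and 58.6% with C29 and at 53.8% and 54.4% with the combination. In exons, introns, repeats and both classes between genes, the combination libraries lay below both C29 libraries.

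**Figure D1:**
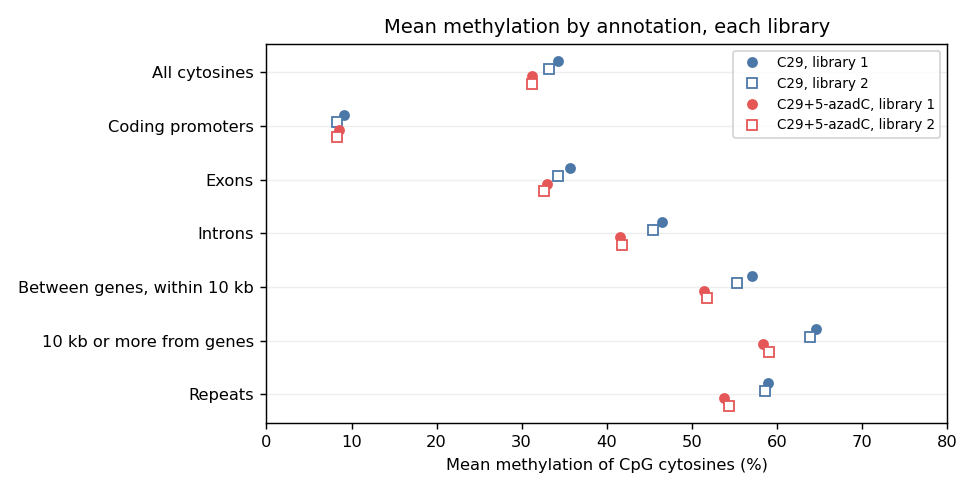
Mean methylation (x axis, %) of CpG cytosines in 7 annotation classes (y axis), with a point for each C29 library (blue) and each C29+5-azadC library (red). The red points lie left of both blue points in every class but coding promoters, where they overlap.

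Relative to the level in C29 tumors, the differences were more alike. They came to -9.27% in introns, -8.69% at 10 kb or more from any gene, -8.23% between genes within 10 kb, -7.93% in repeats, -6.00% in exons and -3.84% in coding promoters. With distance from the nearest start site the difference widened from -0.274 points within 500 bp, where the groups overlapped, to -3.79 points at 1000 to 2000 bp and -5.93 points at 5000 to 20000 bp. Beyond that distance it stayed near -6 points, at -5.99 points to 50000 bp and -6.05 points further out.

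CpG density gave the sharpest contrast. Where 12 or more CpGs lay within 200 bp of sequence, the C29 libraries read 10.7% and 9.75% and the combination libraries 10.5% and 10.0%, a difference of 0.0196 points with overlapping groups over 414993 cytosines. With 8 to 11 CpGs the difference was -3.26 points, with 5 to 7 it was -5.72 points, with 3 or 4 it was -6.84 points, and with fewer than 3 CpGs it was -7.3 points, from 67.2% and 66.2% to 58.9% and 59.9%. In the 4 classes below 12 CpGs the combination libraries lay below both C29 libraries.

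**Figure D2:**
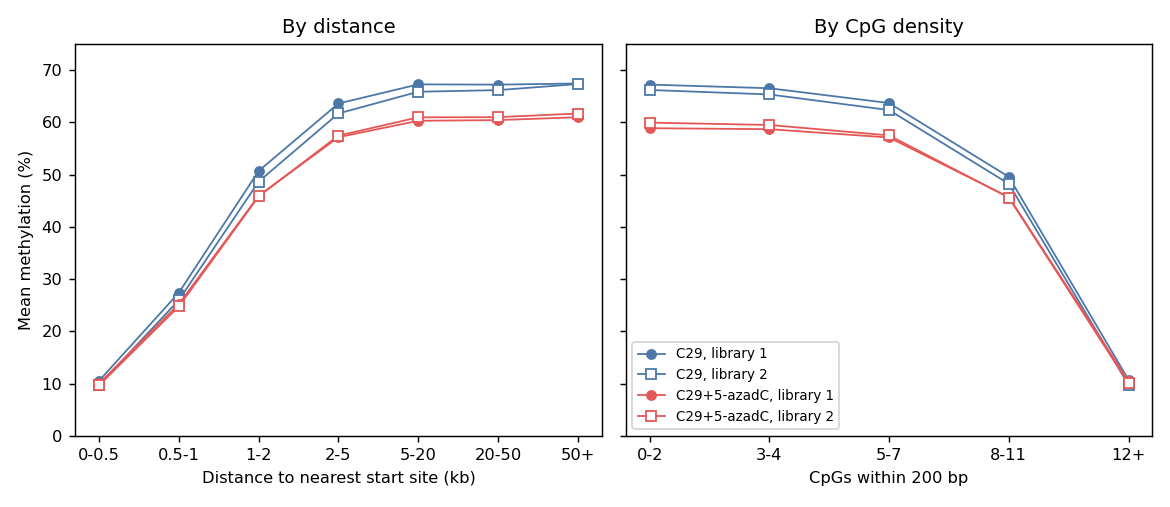
Mean methylation (y axis, %) of each library by distance of the cytosine to the nearest start site in kb (left) and by the number of CpGs within 200 bp (right), C29 in blue and C29+5-azadC in red. The lines of the groups meet within 500 bp of start sites and at 12 or more CpGs and lie apart elsewhere, with a difference of -5.93 points at 5 to 20 kb and of -7.3 points below 3 CpGs.

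Dense CpGs are mostly unmethylated, so the comparison was repeated at cytosines that were highly methylated in the vehicle tumors, whose libraries play no part in the comparison. Of 555155 cytosines with at least 10 reads in all 8 libraries, 136281 had a mean of 80% or more in the 2 vehicle libraries. Among these the difference was again narrow at high density. It was -8.37 points with fewer than 3 CpGs within 200 bp, -8.05 with 3 or 4, -6.95 with 5 to 7, -5.39 with 8 to 11 and -0.782 points with 12 or more. In the last class the C29 mean was 82.61% and the combination mean 81.8%, and the groups overlapped. The C29 libraries stood at 84.8% and 80.5% there, and the combination libraries at 82.6% and 81.1%. The SD of the C29 libraries was 3.04 points in that class and 1.24 with 8 to 11 CpGs, so its narrow difference is uncertain. Highly methylated cytosines in coding promoters differed by -4.16 points and those outside promoters by -6.48 points.

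The bases beside the CpG made a smaller difference. With 3 to 7 CpGs within 200 bp, highly methylated cytosines differed by -8.77 points where A or T flanked the CpG on both sides and by -7.22 points where C or G did. Over all combinations of flanking bases at this density, the widest difference was -9.35 points at ACGA and the narrowest -6.21 points at GCGG. In each of them the combination libraries lay below both C29 libraries.

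The lower level was seen as a shift from high to intermediate methylation. Of the cytosines at 80% or more in vehicle, 79.0% and 75.9% read 80% or more in the C29 libraries. In the combination libraries 65.1% and 65.4% did. The sites were chosen by their vehicle level, so these shares compare C29 with the combination and not either with vehicle. The share between 50% and 80% was 15.3% and 16.5% with C29 and 23.1% and 23.3% with the combination. Below 50% lay 5.70% and 7.62% with C29, and 11.8% and 11.3% with the combination. Cytosines that were below 5% in vehicle were mostly low in both groups. Of them 96.5% and 96.7% read under 20% in the C29 libraries and 96.9% and 96.8% in the combination libraries.

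**Figure D3:**
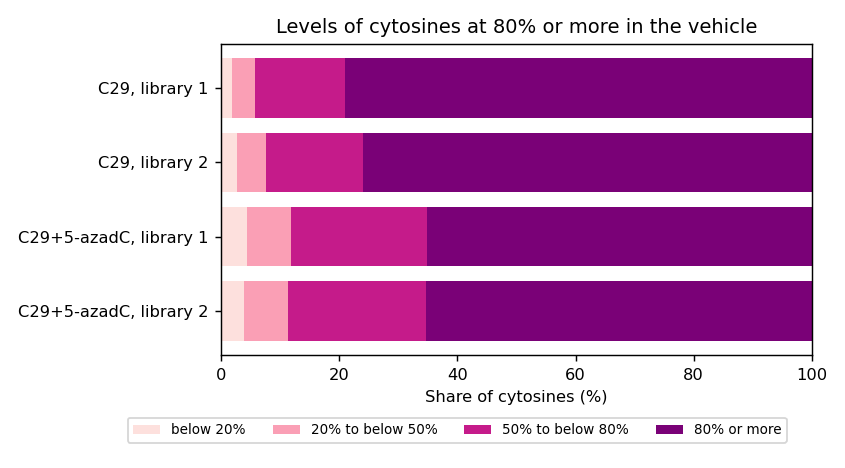
Share (x axis, %) of the 136281 cytosines with a vehicle mean of 80% or more that fell into 4 ranges of methylation in each library (y axis). The darkest segment, 80% or more, covers 79.0% and 75.9% of cytosines with C29 and 65.1% and 65.4% with C29+5-azadC.

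Without C29 the difference made by 5-azadC was wider. On the 555155 cytosines covered in all 8 libraries, vehicle stood at 34.4% in both libraries and 5-azadC alone at 30.0% and 30.4%, a difference of -4.19 points. On those cytosines the combination differed from C29 by -2.58 points. The difference between these differences was 1.61 points, with a two-sided exact permutation p of 0.0556 over 36 arrangements of the C29 label within the libraries with and without 5-azadC, which is the smallest p this design gives. The 2 differences share no library.

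Methylation was next summed over regions. Non-overlapping 1000 bp tiles with at least 3 cytosines, promoters, and gene bodies (the gene without its promoters) were compared on methylated and unmethylated reads with a logistic model and its likelihood-ratio test, the default of methylKit, the tool of the study. A region was called when q, adjusted after Benjamini and Hochberg, was under 0.01 and pooled methylation, the methylated share of all reads of a group over the region, differed by 25 points or more. Of 68284 tiles, 3920 were called lower with the combination (5.74%) and 963 higher (1.41%). Of 13883 promoters, 182 were called lower (1.31%) and 92 higher (0.663%). Of 19096 gene bodies, 446 were called lower (2.34%) and 104 higher (0.545%). Lower calls made up 80.3% of the called tiles, 66.4% of the called promoters and 81.1% of the called gene bodies.

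This test leaves out the variation between libraries, which was wide. The 2 C29 libraries differed from each other by at least 25 points in 10.4% of tiles and the 2 combination libraries in 14.8%, against 7.15% of tiles in which the pooled groups differed by that much. For promoters these shares were 3.57%, 4.39% and 1.97%. A pooled group holds 2 libraries, so its difference varies less than that between single libraries, and these shares are not like for like. Tests that count the variation between libraries made no call at q below 0.05. edgeR's quasi-likelihood test over 4 libraries called 0 tiles, 0 promoters and 0 gene bodies. Its unadjusted p was under 0.05 in 2992 tiles, 502 promoters and 880 gene bodies (4.38%, 3.62% and 4.61%). Over all 8 libraries it also called 0, with 2800, 369 and 932 at that level (4.315%, 2.73% and 4.95% of those it could fit). The overdispersion-corrected F test, which has 2 residual degrees of freedom here and too little power for a threshold over so many regions, called 0 as well. Its unadjusted p was under 0.05 in 3853, 563 and 1088 (5.64%, 4.055% and 5.70%). Such shares are near or below the 0.05 that p-values give without any difference. By direction, the tiles under 0.05 in edgeR over 4 libraries were 2374 lower and 618 higher. The promoters were 328 and 174 and the gene bodies 663 and 217. In the F test 3066 tiles were lower and 787 higher. Of all tiles tested, pooled methylation was lower in 61.6% and higher in 32.1%. Called regions held few cytosines, with a median of 3 per tile against 5 in all tiles, and 4 per promoter against 15 in all promoters. The values of single regions below are therefore given library by library.

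Both combination libraries lay below both C29 libraries in 16831 tiles (24.6%) and above both in 5462 (8%). The same held for 2107 promoters that were lower (15.2%) and 1373 that were higher (9.89%), and for 4990 gene bodies that were lower (26.1%) and 1699 that were higher (8.9%). Among the called regions the groups did not overlap in 3191 of the lower and 717 of the higher tiles, in 146 and 78 promoters, and in 400 and 89 gene bodies. The median difference over all regions tested was -1.53 points in tiles, 0 in promoters and -1.47 points in gene bodies.

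Called tiles followed the same map as the single cytosines. Of tiles in promoters 2.04% were called lower, of tiles in exons 5.06%, in introns 7.31%, and at 10 kb or more from any gene 7.80%. By CpG density the share called lower ran from 10.7% below 3 CpGs within 200 bp to 0.663% at 12 or more, where 125 tiles were called lower and 145 higher. The median C29 level was 73.3% in the sparsest tiles, 0.733% at 12 or more CpGs and 0.921% in promoter tiles. Most dense tiles and most promoter tiles could therefore not be called lower. Promoters had the same limit, with a median C29 level of 62.1% at 3 to under 5 CpGs and 0.590% at 12 or more. Of 571 promoters with 3 to under 5 CpGs within 200 bp, 43 were called lower and 7 higher, and of 10158 with 12 or more, 27 were called lower and 47 higher.

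Named promoters were those with the widest gap between the nearest libraries of the groups, among 38 lower and 25 higher promoters of protein-coding genes whose groups did not overlap and whose shallowest library held 100 reads or more. At Hlcs, which encodes the enzyme that attaches biotin to carboxylases, the C29 libraries read 99.6% and 94.7% and the combination libraries 61.03% and 68.6%. At Scnn1a, the alpha subunit of the epithelial sodium channel, methylation was 23.5% and 40.7% with C29 and 0% in both combination libraries, on 3 cytosines. Pdzd3, a PDZ-domain scaffold, read 99.4% and 100% with C29 and 65.9% and 75.9% with the combination. Thus a called promoter could fall in part from a high C29 level, or to 0% from an intermediate C29 level. At Scnn1a vehicle read 0% and 10.6% and 5-azadC alone 0% in both libraries, so both C29 libraries lay above vehicle.

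Mgp, the matrix Gla protein that restrains calcification, read 100% and 91.7% with C29 and 34.1% and 70.4% with the combination. Cars, the cysteinyl-tRNA synthetase, read 69.3% and 61.1% against 38.0% and 17.4%. At both promoters the combination libraries also stood far apart from each other.

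Necab1, a neuronal calcium-binding protein, read 81.3% and 75.5% with C29 and 39.4% and 48.4% with the combination. Its gap of 27.1 points was the widest of the named lower promoters. Adam6b, a member of the ADAM family with a role in male fertility, read 61.2% and 26.1% against 0.625% and 0%. Vehicle read 4.5% and 20.8% at Adam6b, below both C29 libraries. Mpp2, a membrane scaffold of the MAGUK family, read 58.0% and 43.2% against 18.6% and 18.8%, and Tnnt1, slow skeletal troponin T, 62.6% and 62.2% against 35.5% and 39.2%. The C29 libraries of Tnnt1 lay within 1 point of each other, whereas those of Adam6b lay far apart.

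At most lower promoters the size depended on which cytosines entered and how they were weighted. With promoters extended to 500 bp downstream of start sites, the difference was no longer 25 points at Hlcs (-9.70), Mpp2 (-16.1) and Scnn1a (-5.56), and with strands summed it was not at Pdzd3 (-20.2). The unweighted mean over cytosines gave -4.68 points at Tnnt1 and -16.7 at Cars. Necab1, Adam6b and Mgp kept the call under every read-level setting in which they could be tested. Mgp could not be tested with at least 20 reads per cytosine. Adam6b, on 4 cytosines, could not be tested with at least 5 cytosines per region. Dchs1, a protocadherin, read 95.9% and 88.5% with C29 and 15.9% and 67.7% with the combination on 3 cytosines. With the extended promoter its difference was 5.72 points in the opposite direction. Gpatch2, which encodes a G-patch protein, read 41.7% and 36.9% against 10.9% and 12.8%, but 11 of its 17 cytosines, in a window of 50 bases, read 0% in all 4 libraries, and with at least 20 reads per cytosine its difference was 0.184 points.

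Higher promoters were fewer. Usp29, a ubiquitin-specific peptidase of the imprinted Peg3 domain, read 47.9% and 28.98% with C29 and 91.1% and 83.4% with the combination, a difference of 52.6 points. Golga7b, which belongs to the golgin A7 family of palmitoyltransferase partners, read 26.5% and 21.9% against 65.6% and 79.5%. Its gap of 39.0 points was the widest among protein-coding promoters called higher that met the read minimum. Zfp804a, a zinc finger gene, read 0% and 31.6% against 62.5% and 61.9%. In each of these the nearest libraries of the groups were 30.3 points or more apart.

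Hsf4, a heat shock transcription factor of the lens, read 26.1% and 36.2% with C29 and 58.7% and 69.9% with the combination. Mapk8ip1, the JNK scaffold JIP1, read 43.9% and 43.1% against 65.5% and 71.8%, and Tnfaip2, a gene induced by tumor necrosis factor, 53.8% and 40.0% against 75.1% and 72.1%. These 3 had gaps of 18.4 to 22.5 points. Sh3d19, an SH3-domain adaptor, read 29.7% and 21.3% against 54.7% and 66.4%, and Arl6ip4 read 4.33% and 6.47% against 31.1% and 37.3%. Most higher promoters also depended on the setting. With extended promoters the difference was 10.4 points at Zfp804a, 21.02 at Golga7b, 11.5 at Tnfaip2 and 19.99 at Mapk8ip1, and with at least 20 reads it was 17.5 points at Hsf4, so that none of these kept the call. Sh3d19 and Arl6ip4 lost their direction, since the unweighted mean over cytosines gave -2.37 points at Sh3d19 and a minimum of 20 reads gave -0.876 points at Arl6ip4.

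**Figure D4:**
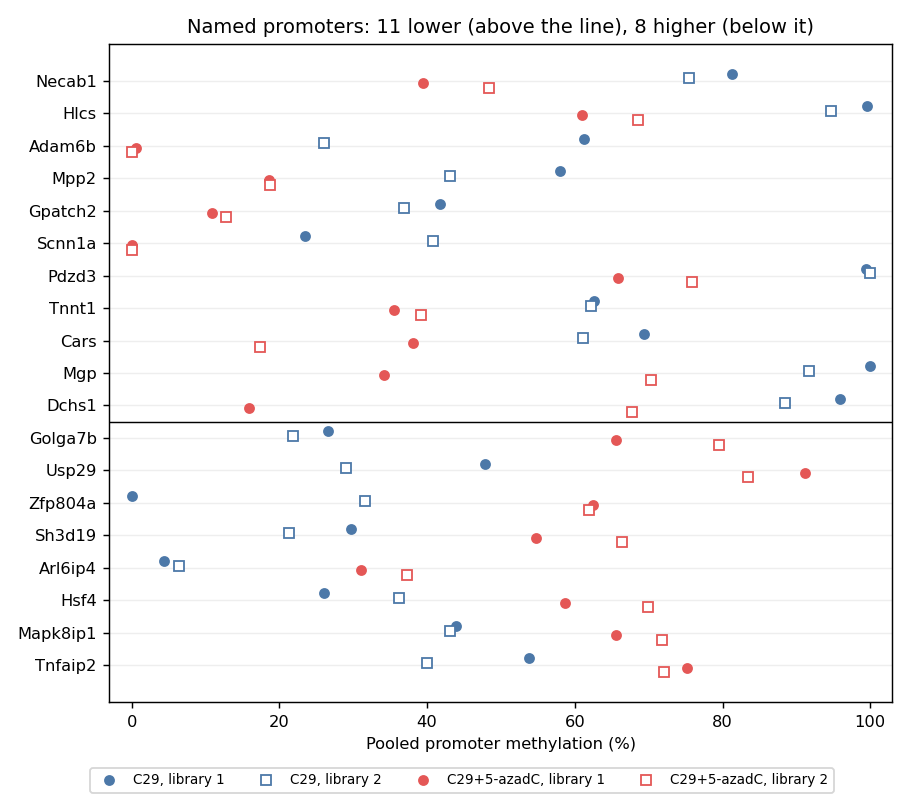
Pooled promoter methylation (x axis, %) of 19 named protein-coding promoters (y axis), with a point for each C29 library (blue) and each C29+5-azadC library (red). By the rule that chose them the red and blue points do not overlap, and the gap between the nearest libraries is 27.1 points at Necab1 and 39.0 points at Golga7b.

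Gene bodies were named by the same rule, from 149 lower and 35 higher. Among the lower ones, Itgax (chr7:128129547-128150657), the CD11c integrin of dendritic cells and macrophages, read 70.0% and 82.3% with C29 and 27.1% and 26.1% with the combination. Scimp (chr11:70790932-70812586), an adaptor of antigen-presenting cells, read 68.0% and 79.4% against 32.3% and 25.8%. Both are genes of immune cells, and the part that host cells had in these values was not tested. Gpi1 (chr7:34201330-34230336), the glycolytic enzyme glucose-6-phosphate isomerase, read 86.0% and 88.3% against 48.1% and 49.4%, but with at least 20 reads it differed by -20.5 points and was not called.

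Chrna2, a nicotinic acetylcholine receptor subunit, read 89.1% and 90.7% with C29 and 43.3% and 49.8% with the combination, and Mmgt2, a membrane magnesium transporter, 100% and 96.0% against 54.7% and 53.1%. In these gene bodies the nearest libraries of the groups were 39.3 and 41.4 points apart. Of the higher gene bodies, Trpa1, an irritant-sensing ion channel, read 13.8% and 5.26% against 52.2% and 45.6%, and with at least 5 reads it differed by 23.8 points and was not called. Zkscan2, a zinc finger gene, read 27.6% and 24.6% against 61.4% and 62.6%. Arpc2, a subunit of the actin-nucleating Arp2/3 complex, read 30.1% and 10.7% against 61.6% and 61.02%, on 5 cytosines, and its unweighted mean differed by 0.352 points. Each of these 8 values stood for 3 to 9 cytosines of a gene and not for its whole length. At the higher gene bodies vehicle lay above both C29 libraries. It read 48.3% and 53.98% at Trpa1, 84.3% and 57.05% at Zkscan2 and 100% in both libraries at Arpc2.

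Between genes, 268 tiles were called lower and 38 higher at 10 kb or more from any gene, under the same read minimum and without overlap. Before these 2 limits, 778 of the 9981 tiles tested in this class were called lower (7.80%) and 201 higher (2.01%). Of all tiles 5.74% and 1.41% were. The chromosome 19 tile (chr19:51442001-51443000), 189103 bp from the nearest gene, read 100% in both C29 libraries and 20% and 37.1% in the combination libraries. The chromosome 3 tile (chr3:121552001-121553000) read 99.6% and 100% against 45.5% and 39.7%, and a tile on chromosome 10 (chr10:7886001-7887000) read 100% in both C29 libraries against 50% and 43.5%. Among higher tiles, chr3:132425001-132426000 read 44.2% and 41.1% against 93.5% and 90.8%, and chr11:51130001-51131000 read 43.5% and 35.8% against 81.4% and 82.0%. Vehicle read 82.6% and 85.2% in the former and 69.2% and 46.6% in the latter, above both C29 libraries. Some of the pooled tile levels mixed cytosines at 0% and 100%. In the chromosome 10 tile, 1 of 4 cytosines read 100% in all 4 libraries and another 0% in both combination libraries. In chr3:132425001-132426000, of 4 cytosines looked at singly, 1 read 0% with C29 and 100% with the combination in both libraries, and 2 read 100% in both C29 libraries.

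The libraries of vehicle and of 5-azadC alone gave a separate view of the called regions. In 2636 tiles called lower without overlap that also had at least 30 reads in each of those 4 libraries, 5-azadC alone differed from vehicle by a median of -10.2 points, and 76.56% were lower. In all 33114 such tiles with a C29 level of 50% or more, the median was -8.86 points and 80.3% were lower. Both 5-azadC libraries lay below both vehicle libraries in 37.6% of the called tiles and 43.1% of that background. Tiles called higher without overlap, 518 with enough reads, had a median of -6.95 points with 5-azadC alone. In all 28616 tiles with enough reads and a C29 level below 50%, the median was -0.0838 points. Median levels were 73.5% with vehicle and 83.2% with C29 in the tiles called lower. In those called higher they were 59.3% and 35.2%. The C29 libraries entered the calls and the vehicle libraries did not.

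Single regions differed in how 5-azadC alone stood to vehicle. At Itgax the vehicle libraries read 43.2% and 50.95% and those of 5-azadC alone 10.7% and 25%, below both of the former. At Scimp the values were 54.4% and 62.7% with vehicle and 85.3% and 74.7% with 5-azadC alone, in the opposite direction to the combination. Usp29 read 48.3% and 26.01% with vehicle and 60.9% and 75.6% with 5-azadC alone, higher as with the combination. The chromosome 3 tile called lower overlapped, at 99.6% and 80% with vehicle against 80% and 100% with 5-azadC alone.

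Imprinted genes were examined as a group because their control regions are methylated on the copy from a single parent. Of 43 such genes, 27 promoters could be tested, 0 were called lower (against 1.31% of all promoters) and 2 were called higher (against 0.663%), Usp29 and Zdbf2. Zdbf2, a paternally expressed gene, read 15.2% and 27.9% with C29 and 78.03% and 39.4% with the combination, so that the combination libraries differed by more than the groups at their nearest. Groups did not overlap in 3 lower and 6 higher imprinted promoters, against 15.2% and 9.89% of all promoters. With promoters extended downstream Zdbf2 differed by 12.9 points and was no longer called. Vehicle read 68.8% and 57.7% at Zdbf2, above both C29 libraries. Sgce, next to Peg10 in an imprinted cluster, read 52.3% and 60.98% against 74.9% and 78.1%. Kcnk9, which encodes a potassium channel, read 46.6% and 44.1% against 48.7% and 62.2%. Impact, which regulates translation through Gcn2, read 7.79% and 23.7% against 25.9% and 26.7%, and Gnas, the stimulatory G protein alpha subunit, 18.1% and 20.1% against 21.9% and 27.2%.

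In the opposite direction, Mkrn3, of the Prader-Willi region, read 20.4% and 33.5% with C29 and 15.0% and 14.3% with the combination. Mest read 93.5% and 87.9% against 87.8% and 75.5%, and Cdkn1c, a cell cycle inhibitor, 53.1% and 57.0% against 51.4% and 50.2%. The remaining 18 overlapped, among them H19, at 47.6% and 35.1% against 23.2% and 39.7%, and Igf2r, at 46.3% and 66.6% against 49.5% and 48.8%. The median level over the 27 was 42.9% with C29 and 50.5% with the combination, while the median of their differences was 0.753 points, against 0 over all promoters. A difference of 10 points or more upward was found in 8 of the 27 and downward in 4, and over all 13883 promoters in 613 and 1023. Most promoters have little methylation, whereas 19 of the 27 stood between 20% and 80% with C29. Of the 2568 promoters in all at that level, 369 were higher and 643 lower by 10 points or more.

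**Figure D5:**
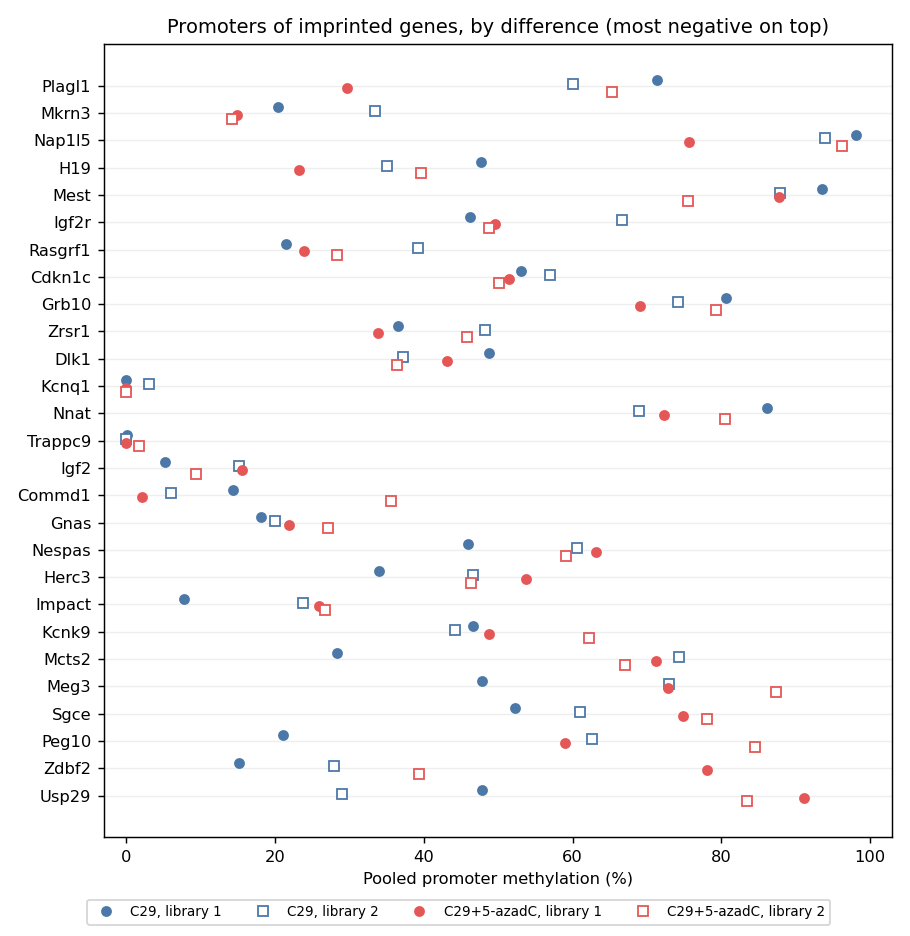
Pooled promoter methylation (x axis, %) of the 27 imprinted genes tested (y axis, ordered by the difference), with a point for each C29 library (blue) and each C29+5-azadC library (red). The red points of Usp29, at 91.1% and 83.4%, lie clear of the blue ones, and in 18 genes the colors overlap.

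Germline genes are kept silent by promoter methylation in body cells and are known to respond to DNMT inhibitors. Of 15 promoters tested from a list of these genes 0 were called, against 1.31% of all promoters called lower and 0.663% called higher. Under this background few calls could be seen in a list of this size. The median level was 81.58% with C29 and 81.5% with the combination, and the median difference -1.36 points. Ddx4, a germ cell RNA helicase, read 92.2% and 94.1% with C29 and 92.8% and 91.5% with the combination, and Mael, of the piRNA pathway, read 94.5% and 97.5% against 95.2% and 97.1%. The groups overlapped in 11 of the 15, and in 10403 of the 13883 promoters in all. They did not overlap at Piwil2, a PIWI protein of the germline, which read 85.4% and 87.3% against 60.5% and 66.5%, nor at Pou5f1, the pluripotency factor Oct4, at 64.0% and 70.7% against 53.4% and 59.6%. Sycp1, of the synaptonemal complex, read 87.3% and 95.1% against 86.5% and 82.5%, and Fkbp6, an immunophilin of meiotic cells, 91.8% and 86.3% against 100% and 96.1%.

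Developmental transcription factors are marked by Polycomb in many cells and often gain methylation in tumors. Of 86 promoters tested, 2 were called lower and 3 higher, against 1.31% and 0.663% of all promoters. The groups did not overlap in 17 lower and 11 higher, against 15.2% and 9.89%, and the median difference was -0.226 points. Lhx5, a LIM homeobox gene, read 32.9% and 66.97% with C29 and 0% in both combination libraries, on 5 cytosines, but differed by -6.62 points with its promoter extended downstream. Hoxb1 read 28.6% and 35.9% against 100% and 67.7%, and its neighbor in the cluster Hoxb2 read 2.44% and 8.96% against 52.1% and 56.4%, each on 3 cytosines. The third higher call, Hoxa7, had overlapping groups, at 15.7% and 50.7% against 37.0% and 61%, and Neurog2, a proneural factor, was called lower at 40.3% and 20.4% against 12.4% and 0%. Pax6, an eye and brain factor, read on 56 cytosines 31.6% and 39.0% against 47.9% and 40.2%, and Sim1, also on 56, read 50.7% and 44.3% against 35.9% and 38.4%.

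A list of interferon response and antigen presentation genes had 0 called among 27 promoters. Without overlap 4 were lower and 3 higher, against 15.2% and 9.89% of all promoters, and the median difference was 0 points. The shares called among all promoters were 1.31% lower and 0.663% higher. Igtp, an interferon-induced gene outside the list, was called lower, at 67.9% and 82.6% with C29 and 40.7% and 44.55% with the combination. Nlrc5, the activator of MHC class I genes, read 85.9% and 84.9% with C29 and 68.6% and 68.9% with the combination, and Stat2, of the interferon signal, 84.8% and 75.3% against 67.9% and 66.5%. Zbp1, a sensor of nucleic acids, read 14.3% and 35.2% against 12.7% and 0%, and 0% in both vehicle libraries. Most of the group, such as Irf1, Psmb9, Tap2 and Usp18 at 0% in all 4 libraries, was unmethylated in both groups, and 16 of the 27 were below 10% with C29.

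Promoters of the ERR receptors, of DNA methylation and of the methionine cycle, the pathways on which the drugs act, also had 0 called of 22, beside 1.31% lower and 0.663% higher of all promoters. Groups were apart in 6 lower and 0 higher, beside 15.2% and 9.89%, and the median difference was -0.203 points. Esrra, the gene of ERRα, read 1.76% and 0.558% with C29 and 0% in both combination libraries. Esrrb, a related receptor, read 23.0% and 35.1% against 18.9% and 10.8%. Mat1a, the liver form of the enzyme that makes the methyl donor S-adenosylmethionine, read 34.0% and 25.7% against 10.9% and 12.6%. Mbd2, which binds methylated DNA, read 25.2% and 19.13% against 9.87% and 6.30%, and Uhrf1, which brings DNMT1 to replicating DNA, 3.59% and 2.63% against 0.408% and 0.103%. Esrra and Uhrf1 were nearly free of methylation in all 4 libraries.

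The groups overlapped at the promoters of Dnmt1 and Dnmt3a. Dnmt1 read 1.24% and 4.64% with C29 and 2.34% and 3.54% with the combination, and Dnmt3a 7.37% and 12.3% against 5.89% and 9.18%. The demethylation genes Tet2, at 0% in all 4 libraries, Tet3, at 2.91% and 0.754% against 0.717% and 1.25%, and Tdg, at 26.4% and 38.5% against 12.98% and 48.7%, overlapped too. Mat2a stayed at or below 0.419%. The gene body of Ahcy, which clears S-adenosylhomocysteine, read 4.66% and 3.04% against 6.23% and 5.46%, higher without overlap.

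The 9 transcription factors that the study followed for the combination were chosen on libraries of this series and on patient data. There the combination was compared with vehicle, whereas here it is set against C29, so the values do not repeat that comparison. Of the 9, 7 had a tested promoter, of which 0 were called (all promoters, 1.31% lower and 0.663% higher). The choice made on the same libraries is no independent evidence. Vdr, the vitamin D receptor, was the only promoter of the 7 whose groups did not overlap (all promoters, 15.2% lower and 9.89% higher), at 11.1% and 14.2% with C29 and 7.00% and 6.13% with the combination. Irf4, a factor of lymphoid cells, read 42.4% and 63.6% against 62.8% and 34.3% on 3 cytosines, beside 70.3% and 64.5% with vehicle. Tead2, of the Hippo pathway, read 11.2% and 11.6% against 15.7% and 6.85%, and Gfi1, a repressor of blood cells, 26.1% and 13.3% against 15.96% and 20.6%. Hoxa3 read 74.2% and 82.8% against 93.8% and 52.2%, Nr2c2 2.18% and 3.24% against 2.29% and 3.30%, and Zbtb20 was at 0% throughout. For Pou3f3 and Foxe1 only the gene body was tested, at 34.5% and 41.1% against 48.3% and 42.1% for Pou3f3, higher without overlap, and at 63.4% and 56.8% against 58.2% and 57.3% for Foxe1.

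A list of tumor suppressor genes often methylated in breast cancer had 0 called of 32 promoters (all promoters, 1.31% lower and 0.663% higher). Without overlap 2 were lower and 3 higher (all promoters, 15.2% and 9.89%), and the median difference was 0 points. Timp3, an inhibitor of metalloproteases, read 25.6% and 0% with C29 and 31.6% and 47.4% with the combination, and Dkk2, a Wnt regulator, 7.62% and 31.3% against 40.0% and 39.0%. Esr1, the estrogen receptor, read 27.2% and 21.5% against 32.7% and 29.8%. These were the 3 higher ones. Of 79 tested promoters from a published signature of ERRα target genes, 0 were called, 10 were lower and 4 higher without overlap, and 64 were below 10% with C29. Over all promoters the same shares were 1.31% lower and 0.663% higher called, and 15.2% and 9.89% without overlap. Kcnn4, a potassium channel, read 58.5% and 63.4% against 48.8% and 37.0%, and Sult2b1, a sulfotransferase, 44.1% and 38.2% against 21.04% and 28.9%.

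Epithelial promoters were checked for the identity of the tumors. Of 9 tested, Grhl2, Erbb3 and Esrp1 read between 0% and 2.12% in the 4 libraries, whereas Cdh1, E-cadherin, reached 12.6% and Epcam, an epithelial adhesion molecule, 14.3% in a C29 library, and the median with C29 was 7.08%. None of the 9 was called (0, beside 1.31% lower and 0.663% higher of all promoters), and Ehf, an epithelial transcription factor, was the only one without overlap (beside 15.2% lower and 9.89% higher of all promoters), at 23.5% and 13.9% with C29 and 2.21% and 6.53% with the combination. The endogenous Erbb2 promoter read 41.3% and 51.3% against 43.6% and 39.3%. Of 8 promoters from blood, endothelial and fibroblast cells, 0 were called lower and 1 was called higher, beside the same 1.31% and 0.663%, and 1 was lower and 2 were higher without overlap, beside 15.2% and 9.89%. The call was Col1a1, type I collagen, at 68.3% and 0% against 100% and 95.1% on 3 cytosines with no more than 34 reads in the shallowest library. Col1a2, the other chain of type I collagen, read 41.6% and 39.9% with C29 and 46.4% and 55.3% with the combination, and Des, desmin, 35.1% and 28.0% against 11.6% and 25.9%. The part of host cells in the differences between the groups was not tested.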

How the data were processed

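RRBS libraries were made from tumor DNA by Diagenode, and the authors aligned reads with Bismark 0.20.0 to mm10 (GRCm38) and named FastQC 0.11.8, Trim Galore 0.4.1 and methylKit 1.7.0 in the submitters' processing notes. The deposited files give, for each CpG cytosine and strand, the methylated fraction and the read count, both without normalization. Their product gave methylated reads (whole within 0.01 at all but 2 to 5 cytosines per library). Groups came from the sample titles. Regions followed GENCODE M21. The logistic test was written in Python 3.11.15 (NumPy 2.4.6, SciPy 1.17.1, pandas 2.3.3, matplotlib 3.10.9) and edgeR 4.0.16 (limma 3.58.1) ran in R 4.3.3. All were tested on simulated data. Median reads per tested cytosine were 31 to 43. Named regions were the 12 lower and 8 higher promoters, 5 and 3 gene bodies and 3 and 2 tiles with the widest gaps, up to 3 promoters per gene list, and the genes around ERRα and DNA methylation. Of these, 1 lower promoter is not reported here. The members and lists were chosen with earlier results of these data known. Alternatives changed the coverage limits, strand handling, cytosines per region, region bounds, smallest difference, weighting, test, replicate block and libraries.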

Additional observations from a re-analysis of the deposited data

How the results depend on the processing

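The difference in mean methylation stayed negative under every alternative, between -2.49 and -2.78 points, and between -2.04 and -3.14 points when a library was left out. The read-level counts moved with the filters. With at least 20 reads per cytosine, 1556 tiles were called lower and 346 higher, 88 and 56 promoters, and 297 and 61 gene bodies. With at least 5 cytosines per region the counts were 838 and 246 tiles, 80 and 45 promoters, and 203 and 58 gene bodies, and with at least 1 they were 17771 and 6190 tiles, 579 and 297 promoters, and 1055 and 323 gene bodies. A smallest difference of 10 points gave 17248 and 5005 tiles, 1007 and 598 promoters, and 3413 and 933 gene bodies. The overdispersion-corrected F test and edgeR over 4 or 8 libraries gave 0 for each. Leaving out a library left a group with 1 and raised the counts, to between 5066 and 6260 lower and 1597 and 2209 higher tiles, 221 to 304 lower and 135 to 196 higher promoters, and 632 to 789 lower and 188 to 258 higher gene bodies. Each of the 4 libraries, left out, raised the tiles and gene bodies called higher by more than 1.5 times (without C29 1 and 2, 2209 and 1597 tiles and 258 and 188 gene bodies, and without combination 1 and 2, 1863 and 1838 tiles and 221 and 229 gene bodies). So did each but C29 2 for promoters called higher (196, 168 and 191), each but C29 1 for gene bodies called lower (737, 715 and 789), C29 2 for promoters called lower (304) and combination 2 for tiles called lower (6260). Lower calls outnumbered higher ones in each of these. The replicate numbers did not pair the libraries, since the deviations of same-numbered libraries correlated at 0.0123 across tiles, 0.0212 across promoters and 0.0124 across gene bodies. With the replicate block, 3909 and 962 tiles, 180 and 92 promoters and 445 and 104 gene bodies were called, and the mean difference was -2.59 points. Of 38 named regions, 17 stayed called in the same direction under every read-level alternative in which they could be tested, and 4 changed direction under 1 setting: Gpatch2 (0.184 points) and Arl6ip4 (-0.876) with 20 reads, Dchs1 (5.72) with promoters to 500 bp downstream, and Sh3d19 (-2.37) by the unweighted mean. Depth limits single regions more than the means, since a called tile had a median of 78 reads in its shallowest library.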
